A study of Drosophila melanogaster with 2 samples.

Results

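The genes described here encode the motors of the microtubule cytoskeleton and the tubulins that build its tracks. They were chosen by symbol, as probe sets whose single gene symbol (or a synonym carried by no other gene) names a kinesin (*Klp*, *Khc*), a dynein heavy chain (*Dhc*, *Dnah*) or an alpha-, beta- or gamma-tubulin, or is a listed motor subunit, dynein partner or *futsch*. The rule named 51 genes, of which 43 had a probe set of their own (49 probe sets), out of 10845 genes named on the arrays. The other 8, *Klp3A*, *cana*, *Khc*, *Klp64D*, *Lis-1*, *kl-5*, *alphaTub84B* and *gammaTub23C*, were not analysed here. Of these, the study listed *Klp64D* among the wing development genes down-regulated in the *mid* mutant. Of the 43, *btv* and *CG10845* were matched by synonym.

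RNA of embryos homozygous for a mutation in *mid*, which encodes the T-box transcription factor Midline, was compared with RNA of *yw* embryos, a stock mutant for the pigmentation genes *yellow* and *white*, on Affymetrix *Drosophila* arrays with 1 array per genotype. Embryos of both genotypes were kept at 25 °C and taken 16 h after egg laying, and the mutants were recognised with the CyOact-GFP balancer. The sample labels name *yw* embryos as the control, whereas the study's methods name heterozygous *mid* embryos, and the labels were followed. Neither the *mid* allele on the array nor the number of embryos pooled is given in the sources used here, and a difference of stock or of exact age cannot be told apart from the *mid* genotype.

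Kinesins and dyneins are motors that use ATP to walk along microtubules, most kinesins toward the plus end and dynein toward the minus end. Some kinesins assemble the mitotic spindle and move chromosomes, others carry vesicles and organelles, which is best known from axons. Cytoplasmic dynein works with dynactin in transport and in division, while axonemal dyneins bend cilia and flagella, which in the fly are found in sensory neurons and sperm. Microtubules are polymers of alpha- and beta-tubulin, and gamma-tubulin starts new ones. Flies have several isotypes of each tubulin, some made everywhere and some restricted to the germ line, muscle or sensory organs.

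The values were MAS5 signals, linear intensities that summarise the probe pairs of a probe set. Both arrays were brought to a common median by multiplying the *mid* array by 3.46, because its median was 43.3 against 150 on the *yw* array, and all signals below are on the *yw* scale. A signal under 97.6, the 40th percentile of both arrays, was treated as dim and set to that floor, so that the fold change of a gene above it on a single array is only bounded from below, and none is given where neither array exceeds it. A gene was counted as measured when it exceeded the floor on at least 1 array, and as higher or lower when it differed by more than 2-fold. As each genotype has 1 array, differences have no replicate check and p-values were not computed. As a scale for the disagreement between probe sets, log2 fold changes of different probe sets of the same gene had a pooled SD of 0.53 (287 genes). This gives 0.75 for the difference between a pair. All probe sets read the same arrays, so this SD leaves out variation between embryo collections, RNA preparations and arrays. It cannot show whether the genotypes differ. The middle 90% of measured genes had log2 fold changes between -0.95 and 1.05. The ratio of 3′ to 5′ signal, a measure of RNA degradation, was higher on the *mid* array for 18S rRNA (7.43 against 4.52), actin (53.5 against 28.8) and eIF-4a (63.3 against 50.8) and lower for GAPDH (17.3 against 21.6). On both arrays the 3′ signal of each of these controls was thus at least 4.52 times the 5′ signal. The part of this 3′ bias in the results was not tested. The probe set of *mid* itself was dim on both arrays (56.8 in *mid* and 49.3 in *yw*) and checks nothing about the genotype.

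Within this family, 2 of 4 measured spindle kinesins were lower in the *mid* mutant embryos while the tubulins above the floor on both arrays and the measured subunits of cytoplasmic dynein differed by less than 2-fold. *Klp61F*, the bipolar kinesin that pushes spindle poles apart, was 3.92-fold lower, and *ncd*, the minus-end directed kinesin that focuses spindle poles, was 2.88-fold lower. *Khc-73*, which encodes a kinesin of endosome transport and spindle orientation, was 2.16-fold lower. Of the 43 genes, 23 were measured and 20 were dim on both arrays, so that 53.5% were measured against 70.9% of all named genes. Of the 23, 3 were lower (13.0%), where 4.53% of all measured genes were lower, and 0 were higher, where 5.66% of all measured genes were higher. Another 18 exceeded the floor on both arrays and were within 2-fold, the largest change among them being 1.72-fold. The other 2, *Klp67A* and *betaTub65B*, reached the floor on 1 array only and have a bound under 2-fold, so whether they passed it is not known. At 1.5-fold, 2 of the 23 were higher (*Klc* and *Dhc64C*), where 16.7% of all measured genes were, and the same 3 were lower, where 12.8% were. At 3-fold *Klp61F* alone was lower and 0 were higher, against 1.4% lower and 1.31% higher over all measured genes. The median log2 fold change was 0.08 over the 23 genes and 0.06 over all 7687 measured genes, which differ by 0.02. Log2 fold changes were above 0 for 12 of the 23 and below 0 for 11, and these signs depend on the scaling for genes close to 0.

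**Figure D1:**
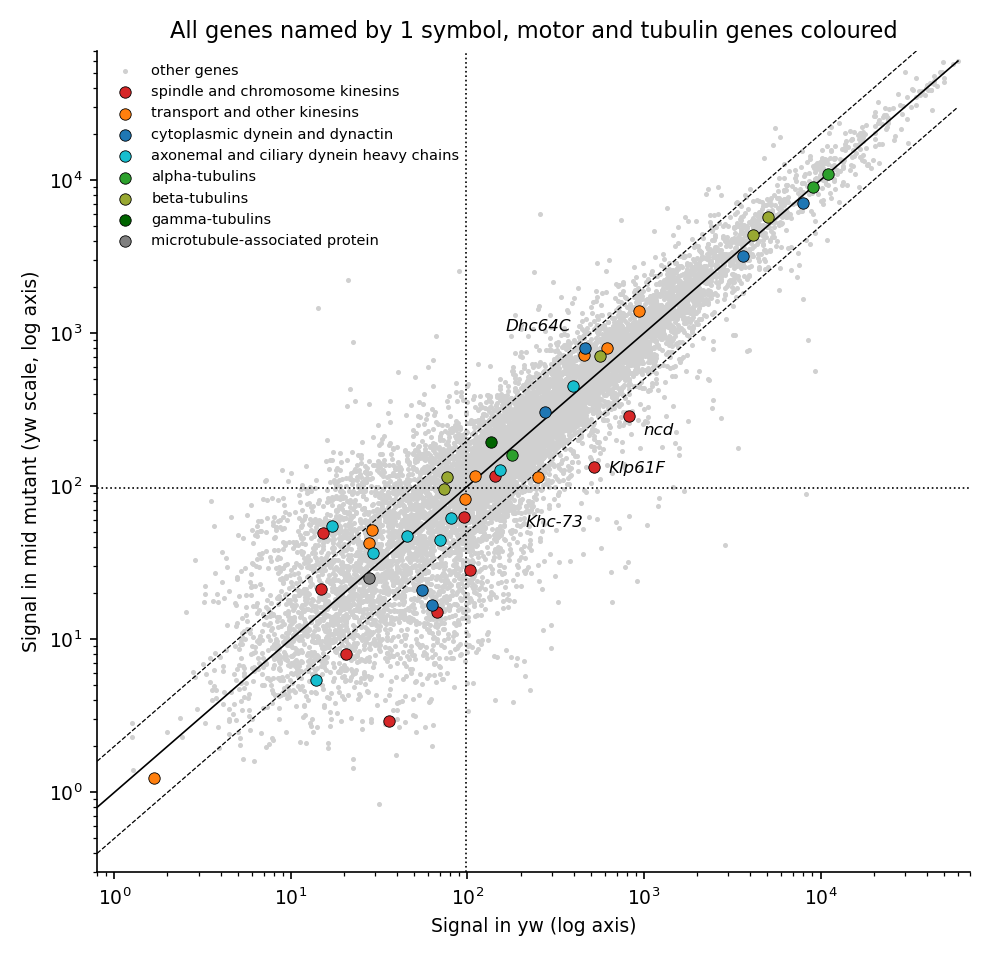
Signal of each of the 10845 named genes in *mid* mutant embryos (vertical axis) against *yw* embryos (horizontal axis), both on log axes, with motor and tubulin genes coloured by role. Dotted lines mark the floor of 97.6 and dashed lines 2-fold; *Klp61F*, *ncd* and *Khc-73* lie below the lower dashed line above the floor, while the tubulins lie near the diagonal.

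Among the kinesins of spindle and chromosomes, 4 of 10 genes were measured, and of these 2 were lower and none was higher. *Klp61F* read 134 in *mid* and 524 in *yw* embryos, a log2 fold change of -1.97. This was the 54th lowest value among the 7687 measured genes. *ncd* read 286 in *mid* and 822 in *yw* embryos, a log2 fold change of -1.53 and the 121st lowest value. *Klp10A*, which encodes a kinesin that depolymerises microtubule ends at spindle poles, read 116 in *mid* and 142 in *yw* embryos (log2 fold change -0.29), a difference below the SD of 0.53 given above. *Klp67A*, another kinesin that shortens spindle microtubules, read 28.6 in *mid*, under the floor, and 103 in *yw* embryos, just above it. Its drop is therefore bounded only at 1.05-fold.

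The remaining 6 spindle kinesins stayed under the floor in both genotypes. They were *Klp59C* and *Klp59D*, relatives of *Klp10A*, *nod*, which holds chromosomes on the female meiotic spindle, *sub*, needed for that spindle, *cmet*, which encodes a kinetochore motor related to CENP-E, and *neb*. The nearest to the floor was *neb*, with 63.0 in *mid* and 95.1 in *yw* embryos. *nod* read 15.0 in *mid* and 66.8 in *yw* embryos. *cmet* read 2.91 in *mid* and 35.9 in *yw* embryos. Signals this dim have no reliable order, so no direction is given for these 6 genes.

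Genes of dividing cells moved with *Klp61F* and *ncd*. Of a list of 14 such genes, which shares no gene with the motors, 8 had a probe set, 7 were measured and all 7 were lower in *mid*, by 4.63-fold to 16.5-fold, where *Incenp*, *fzy*, *pim* and *borr* were at the floor in *mid* and have lower bounds. These values are those of the brightest probe set. The other probe set of *borr* read 71.1 in *mid*, under the floor, and 135 in *yw* embryos. Its log2 fold change of -0.47 is a bound, so whether it passed 2-fold is not known. Among all measured genes, 4.53% were lower. The list median was -2.76 on the log2 scale, and *aurB* was dim on both arrays. Summed over the 8 genes, the signal was 1329 in *mid* and 15686 in *yw* embryos, of which *CycB* alone gave 562 and 9266. By the brightest probe set of each gene, the falls of *Klp61F* and *ncd* were smaller than those of every measured gene of that list. Of 8 measured maternal transcripts, 3 were lower too, *smg* by at least 17.2-fold, *swa* by at least 10.6-fold and *bcd* by at least 3.20-fold. The other 5 were not called. The fall of *swa* is that of its brighter probe set. Its other one read 15.7 in *mid*, under the floor, and 100 in *yw* embryos, just above it, so its drop is bounded only under 2-fold. In RNA of whole embryos, fewer dividing cells, less RNA per dividing cell and a difference in embryo age cannot be told apart. What these and maternal RNA contributed to the values of *Klp61F* and *ncd* was not tested.

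**Figure D2:**
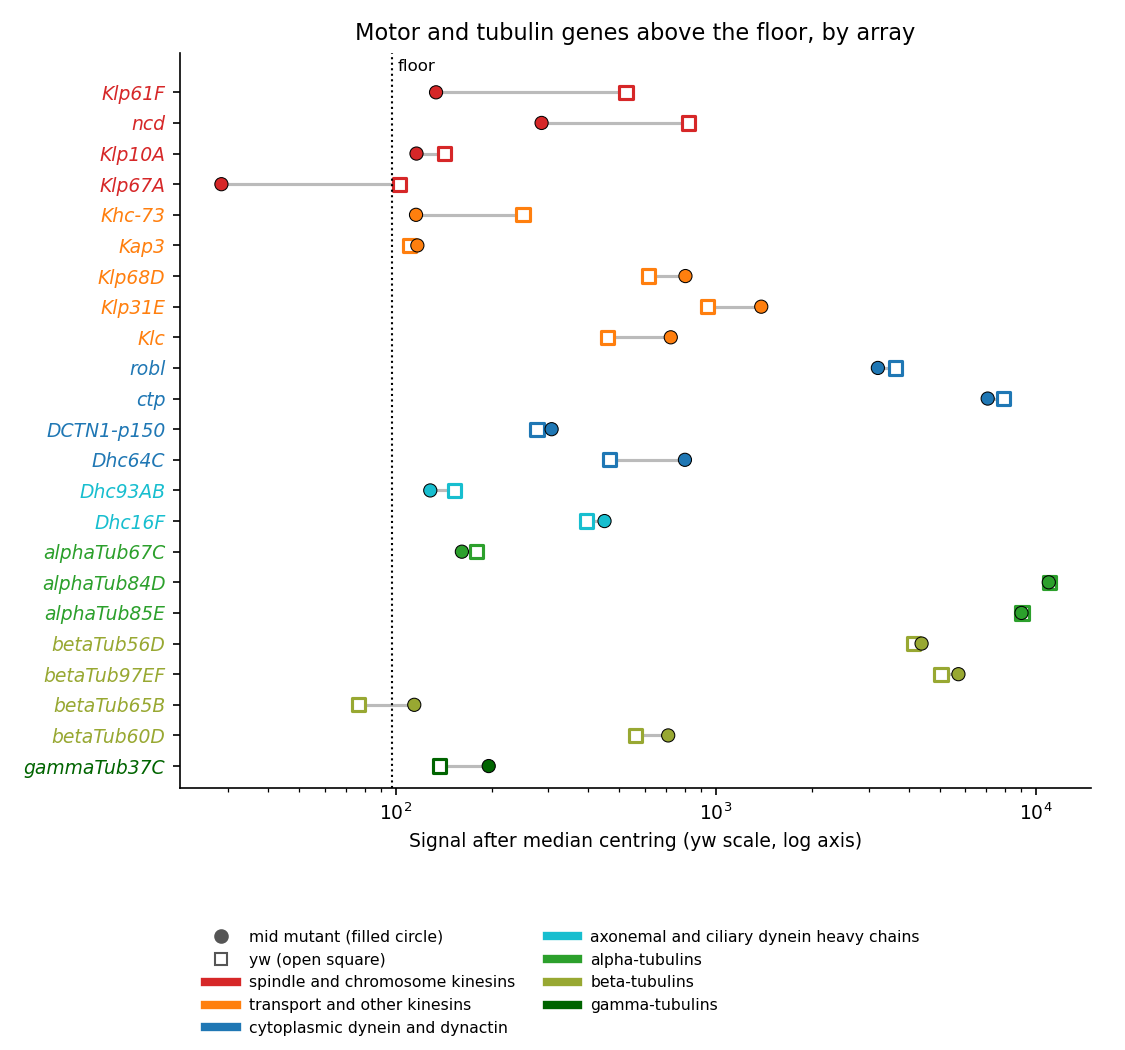
Signal on a log axis of the 23 measured motor and tubulin genes in *mid* mutant embryos (filled circles) and *yw* embryos (open squares), 1 array each, coloured by role, with the floor of 97.6 as a dotted line. *Klp61F* (134 against 524) and *ncd* (286 against 822) show the widest gaps among genes with neither array at the floor.

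The other kinesins did not move together. Of 9 with a probe set, 5 were measured, 1 was lower and none was higher, with log2 fold changes from -1.11 to 0.65. *Khc-73* was the one that was lower, at 116 in *mid* and 250 in *yw* embryos (log2 fold change -1.11), the 275th lowest value of all measured genes. Its signal in *mid* lay close to the floor. *Klc*, which encodes the light chain that couples conventional kinesin to its cargo, read 723 in *mid* and 460 in *yw* embryos, 1.57-fold apart. *Klp31E* read 1387 in *mid* and 941 in *yw* embryos by its brighter probe set, 1.47-fold apart. Its other probe set read 121 in *mid* and 89.9, under the floor, in *yw* embryos. Neither gene passed 2-fold.

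*Klp68D* and *Kap3* encode a motor subunit and the accessory subunit of the heterotrimeric kinesin that serves axonal transport and the building of cilia. *Klp68D* read 804 in *mid* and 616 in *yw* embryos (log2 fold change 0.38). *Kap3* read 117 in *mid* and 110 in *yw* embryos (log2 fold change 0.08). The difference between both subunits, 0.30 on the log2 scale, was smaller than the SD of 0.75 between a pair of probe sets. Dim on both arrays were *unc-104*, which encodes the carrier of synaptic vesicle precursors (82.3 in *mid* and 97.3 in *yw*), *Klp98A*, a motor of endosomes (42.9 in *mid* and 27.6 in *yw*), *Klp54D* and *CG10845*. For *unc-104* the *yw* signal missed the floor by less than 1 unit.

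Cytoplasmic dynein and dynactin had 6 genes with a probe set, 4 of them measured and all 4 within 2-fold, with a median log2 fold change of -0.01. *Dhc64C*, which encodes the heavy chain that holds the motor, read 801 in *mid* and 464 in *yw* embryos. Its ratio of 1.72-fold (log2 fold change 0.79) was the highest of any motor or tubulin gene above the floor on both arrays, and the 747th highest value among all measured genes. *robl*, which encodes a light chain of the same complex, read 3208 in *mid* and 3632 in *yw* embryos (log2 fold change -0.18). *ctp*, which encodes a light chain that also binds many proteins outside dynein, read 7068 in *mid* and 7905 in *yw* embryos (log2 fold change -0.16). The study itself listed *ctp* among the wing development genes up-regulated in the *mid* mutant, by a rule of more than 2-fold with a p-value cut-off. A rise of that size was not seen here, and a value this close to 0 settles no direction. *DCTN1-p150*, the dynactin subunit known as Glued that joins dynein to microtubules and cargo, read 307 in *mid* and 276 in *yw* embryos (log2 fold change 0.15).

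Within this complex, *Dhc64C*, the highest value of the family, lay 0.97 above *robl*, 0.95 above *ctp* and 0.64 above *DCTN1-p150* on the log2 scale. Such differences do not change when 1 array is multiplied by another factor. The first and second are a little above the SD of 0.75 between a pair of probe sets, and the third is below it. Gaps of this size can arise from scatter between probe sets. With 1 array per genotype, whether the subunits differ is not settled. The intermediate chain gene *sw* was dim, with 21.1 in *mid* and 55.7 in *yw* embryos. *Cdlc2*, which encodes a second light chain nearly identical in protein to that of *ctp*, was dim as well, with 16.8 in *mid* and 63.0 in *yw* embryos.

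Axonemal and ciliary dynein heavy chains were mostly dim. Of 8 genes, 2 were measured, and both were within 2-fold. *Dhc16F* read 449 in *mid* and 395 in *yw* embryos (log2 fold change 0.18). *Dhc93AB* read 128 in *mid* and 153 in *yw* embryos (log2 fold change -0.26). Both differences were smaller than the SD of 0.53 between probe sets. The 6 dim genes were *Dhc36C*, *Dhc62B*, *Dhc98D*, *Dhc1*, *Dnah3* and *btv*, the last of which encodes the heavy chain that returns cargo from the tips of sensory cilia (44.5 in *mid* and 70.3 in *yw* embryos). The highest signals among the 6 were those of *Dnah3*, with 61.8 in *mid* and 81.0 in *yw* embryos. Of 14 listed genes of ciliated sensory neurons, 12 had a probe set, 7 were measured, 1 was higher in *mid* (*Oseg5*, at least 2.12-fold) and none was lower. Among all measured genes, 5.66% were higher and 4.53% lower. The summed signal of the sensory neuron list was 1346 in *mid* and 1417 in *yw* embryos. The channel genes *nompC*, *iav* and *nan* of these neurons were dim on both arrays.

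**Figure D3:**
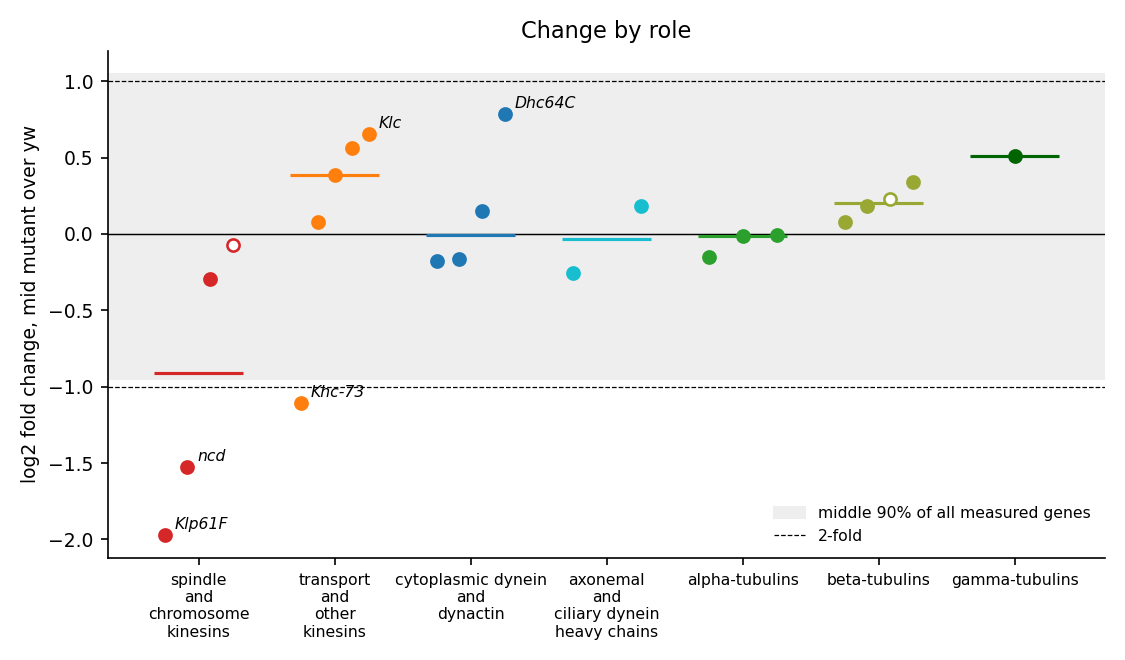
Log2 fold change, *mid* mutant over *yw*, of the 23 measured genes by role, with a line at each role's median; open points are at the floor on 1 array and are bounds. The grey band is the middle 90% of all measured genes (-0.95 to 1.05) and dashed lines mark 2-fold; only *Klp61F*, *ncd* and *Khc-73* lie outside both.

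Tubulin genes differed little. Of 9 with a probe set 8 were measured, and 7 exceeded the floor on both arrays, with a largest change of 1.43-fold by the brighter probe set. The other 1, *betaTub65B*, has only a lower bound. *alphaTub84D* read 10968 in *mid* and 11050 in *yw* embryos by its brighter probe set, a log2 fold change of -0.01. Its other probe set read 9237 in *mid* and 6179 in *yw* embryos, a log2 fold change of 0.58. Both carry suffixes that Affymetrix gave to probe sets chosen under relaxed rules, and *alphaTub84B* encodes a nearly identical protein, so that the signals of both genes may not be separable here. *alphaTub85E*, an isotype of sensory organs, muscle attachment sites and testis, read 9013 in *mid* and 9040 in *yw* embryos. Its probe set has the suffix for probes common to a gene family, so its value cannot be assigned to this isotype alone. *alphaTub67C*, the maternal isotype, read 161 in *mid* and 179 in *yw* embryos (log2 fold change -0.15).

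Among beta-tubulins, *betaTub56D*, the isotype made in most cells, read 4393 in *mid* and 4153 in *yw* embryos (log2 fold change 0.08). *betaTub97EF* read 5726 in *mid* and 5054 in *yw* embryos (log2 fold change 0.18). *betaTub60D*, the isotype of developing muscle and chordotonal organs, read 710 in *mid* and 560 in *yw* embryos by its brighter probe set (log2 fold change 0.34), and its other probe set was dim with 41.5 in *mid* and 20.3 in *yw* embryos. This pair carries the same relaxed-rule suffixes as that of *alphaTub84D*, and the median over both, with the dim one at 0, was 0.17 on the log2 scale. These 3 isotypes were thus a little brighter in *mid*, by less than the SD between probe sets. With the spiked controls as the scale, *betaTub56D* and *betaTub97EF* were at -0.25 and -0.15 on the log2 scale, so the sign of this group is not settled. *betaTub65B* was just above the floor in *mid* (114) and under it in *yw* (76.5), at least 1.17-fold higher, and its log2 fold change was 0.58 with no floor. *betaTub85D*, the isotype of the testis, was dim on both arrays (95.3 in *mid* and 73.6 in *yw*). *gammaTub37C*, the maternal gamma-tubulin, read 195 in *mid* and 137 in *yw* embryos by its brighter probe set (log2 fold change 0.51) and was dim by its other one (52.7 in *mid* and 26.6 in *yw*).

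Markers of the tissues that use these isotypes are given for comparison, beside 5.66% higher and 4.53% lower among all measured genes. Of 7 measured muscle genes, 2 were higher in *mid* (*bt*, 2.06-fold, and *sls*, 2.38-fold) and none was lower, with a summed signal of 150858 in *mid* and 132242 in *yw* embryos. Of 8 measured maternal transcripts, 3 were lower (*bcd*, *swa* and *smg*, all at the floor in *mid*) and none was higher, with sums of 1927 in *mid* and 4671 in *yw* embryos over 11 genes and *osk*, *exu* and *plu* dim on both arrays. The maternal tubulins *alphaTub67C* and *gammaTub37C* were both within 2-fold. Of a list of 10 genes for the male germ line 4 were measured, 1 was lower (*twe*, at least 6.69-fold) and none was higher. The list sums were 1679 in *mid* and 2277 in *yw* embryos. Most of this came from *bol* (1308 in *mid* and 1176 in *yw*) and *twe* (27.5 in *mid* and 653 in *yw*). The list genes *can*, *topi*, *dj*, *Mst84Db*, *Mst87F* and *Mst98Ca* were dim on both arrays. In RNA of whole embryos the fall of *twe* cannot be assigned to this tissue. What these tissues contributed to the tubulin values was not tested.

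*futsch*, which encodes the large neuronal microtubule-associated protein related to mammalian MAP1B, was dim by all 3 of its probe sets. Its signals were 25.0, 13.3 and 7.15 in *mid*, against 27.6, 24.2 and 30.5 in *yw* embryos. Of 10 listed neuronal genes, 7 had a probe set, 5 were measured, 2 were higher in *mid* (*elav*, 2.23-fold, and *fne*, 2.57-fold) and none was lower. The shares among all measured genes were 5.66% higher and 4.53% lower. The median log2 fold change of the list was 0.72. The summed signal of the list was 7012 in *mid* and 4258 in *yw* embryos, and *brp* and *para* were dim on both arrays. *Dhc64C*, *Klc* and *Klp68D*, motors with known roles in axons, had ratios of *mid* to *yw* signal of 1.72, 1.57 and 1.30, none of them past 2-fold. With the spiked controls as the scale, their log2 fold changes were 0.46, 0.33 and 0.06, while the median of all measured genes was -0.24. The kinesin genes *Khc-73* and *Klp31E* had ratios of 0.463 and 1.47. Other subunits of these motors and of dynactin had ratios of 1.06 (*Kap3*), 1.11 (*DCTN1-p150*), 0.883 (*robl*) and 0.894 (*ctp*), and the axonal kinesin gene *unc-104* was dim on both arrays. The part of nervous tissue in these values was not tested.

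Other microtubule genes were taken from 5 lists of partners of the motors. Their counts stand beside 5.66% higher and 4.53% lower among all measured genes, and the lists are short. Of 6 measured genes of the gamma-tubulin ring complex and of augmin, the complex that branches spindle microtubules, 2 were lower and none was higher. They were the augmin subunit genes *dgt6*, with 95.2 in *mid*, just under the floor, and 456 in *yw* embryos (at least 4.67-fold lower), and *msd1*, with 48.5 in *mid* and 199 in *yw* embryos (at least 2.04-fold lower). *Grip91* and *Grip128*, subunits of the ring complex, read 111 and 98.3 in *mid*, against 199 and 126 in *yw* embryos, both within 2-fold. The list median was -0.60. Another 8 genes of the list were dim on both arrays.

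Of 15 measured dynactin subunits and dynein cofactors, 1 was higher and none was lower, and their median log2 fold change was 0.03. This was *DCTN3-p24*, a dynactin subunit, with 249 in *mid* and 87.9, under the floor, in *yw* embryos (at least 2.55-fold higher). The dynactin subunits *DCTN2-p50* (2114 in *mid* and 2333 in *yw*) and *DCTN6-p27* (1117 in *mid* and 1138 in *yw*) hardly differed. *Dlic*, the light intermediate chain of dynein, read 897 in *mid* and 688 in *yw* embryos (log2 fold change 0.38). *egl* and *BicD*, which tie mRNA cargo to dynein, had log2 fold changes of 0.73 and 0.13. All 7 kinesin adaptor genes with a probe set were measured, with a median of 0.13, and 6 were within 2-fold, among them *Miro* and *milt*, which link mitochondria to kinesin (0.58 and 0.13), and *Unc-76* (0.71). The other 1, *syd*, read 141 in *mid* and 32.1, under the floor, in *yw* embryos, at least 1.45-fold higher, so whether it passed 2-fold is not known.

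Of 17 measured microtubule-associated and end-binding protein genes, 2 were higher, 1 was lower and the median was 0.14. *Map60*, which encodes a centrosomal microtubule-associated protein, read 269 in *mid* and 1782 in *yw* embryos (6.63-fold lower). *CLIP-190*, which encodes a plus-end binding protein, read 927 in *mid* and 293 in *yw* embryos (3.16-fold higher) by its brighter probe set, and 116 in *mid* and 27.1, under the floor, in *yw* embryos by its other one. *Kat60*, the catalytic subunit of the microtubule-severing enzyme katanin, read 376 in *mid* and 166 in *yw* embryos (2.26-fold higher). Its partner *kat80* had a log2 fold change of 0.69.

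Of 13 measured genes that fold or modify tubulin, 2 were higher and 3 lower (median 0.07). *Atat*, which acetylates alpha-tubulin, read 402 in *mid* and 155 in *yw* embryos (2.59-fold higher). *mlt*, which encodes a protein related to the tubulin folding cofactor E, was 2.20-fold higher by its brighter probe set (608 in *mid* and 276 in *yw*) but had a log2 fold change of 0.43 by its other one. The folding cofactor genes *Tbcb* (272 in *mid* and 585 in *yw*, 2.15-fold) and *Tbcd* (94.3 in *mid*, under the floor, and 225 in *yw*, at least 2.30-fold) were lower, whereas *Tbca*, *Tbcc* and *Tbce* were within 2-fold. *TTLL5*, which encodes a tubulin glutamylase, was at least 2.57-fold lower, with 30.6 in *mid* and 250.3 in *yw* embryos.

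**Figure D4:**
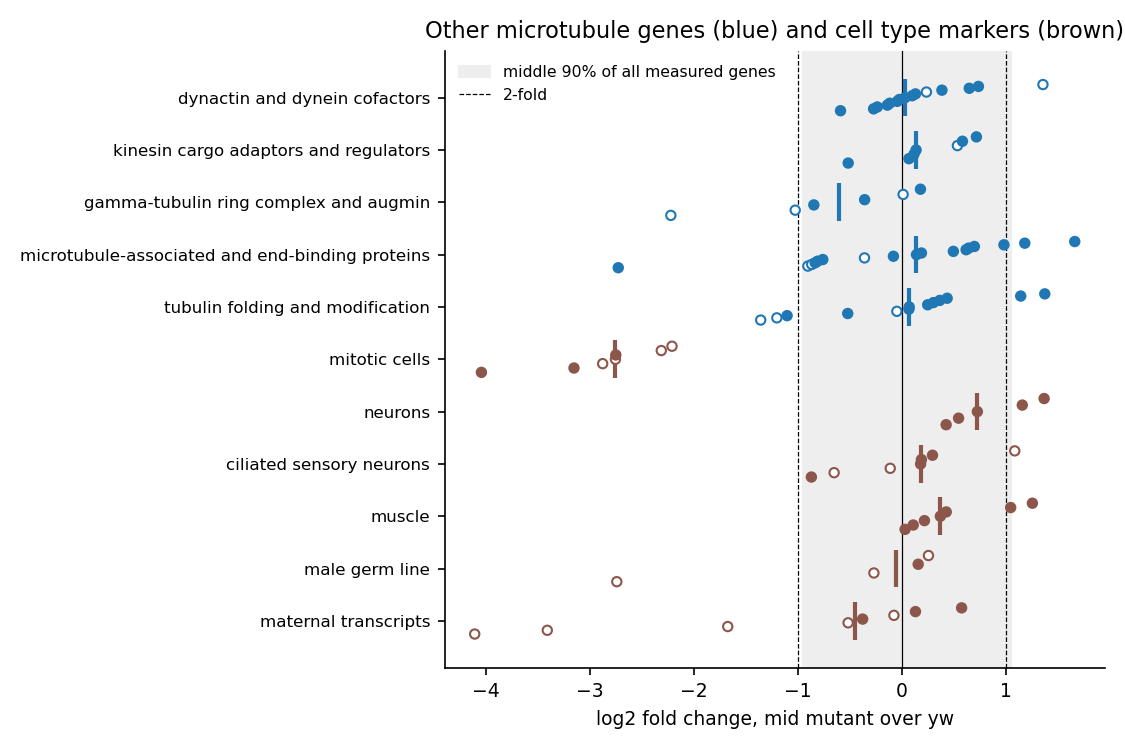
Log2 fold change, *mid* mutant over *yw*, of the measured genes of 5 lists of other microtubule genes (blue) and 6 marker lists (brown), with a bar at each list's median; open points are at the floor on 1 array and are bounds. All 7 measured genes of dividing cells lie left of the 2-fold line, while the dynactin and kinesin adaptor lists centre near 0 (medians 0.03 and 0.13).

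Most ways of scaling the arrays left these calls as they were. *Klp61F*, *ncd* and *Khc-73* were the genes called lower, and no gene was called higher, with quantile normalisation, with loess, with the means of the central 96% of values made equal and with the spiked controls. With the spiked controls their log2 fold changes were -2.30, -1.85 and -1.44, while the median of all measured genes was -0.24. With the values as deposited 22 of 31 measured genes of the family were called lower, where 76.2% of all measured genes were. Relative to *betaTub56D*, which needs no common scale, *Klp61F* was lower by 2.05, *ncd* by 1.61 and *Khc-73* by 1.19 on the log2 scale, and these differences were 1.99, 1.57 and 1.10 with loess. *Dhc64C* exceeded *Klp61F* by 2.76 on the log2 scale after median centring. The call of *Khc-73* rested on its signal near the floor, as its log2 fold change was -0.13 with a floor raised to the 60th percentile, which exceeds its signal in *mid*, and *Klp61F* was then at -1.20 as a bound.

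**Figure D5:**
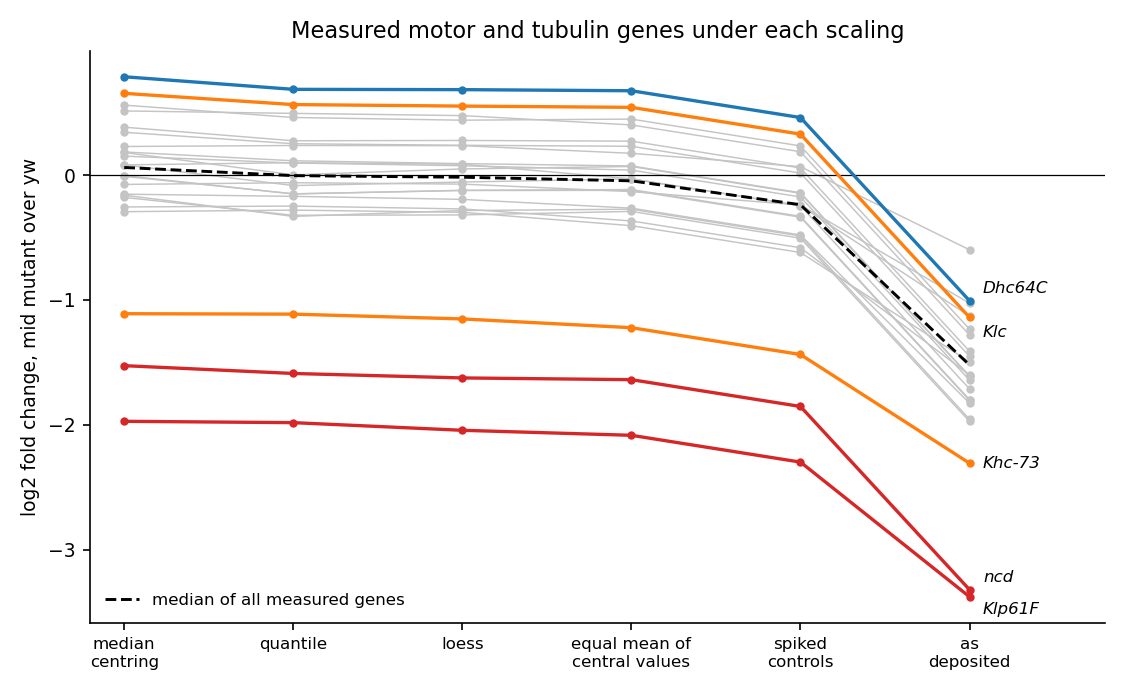
Log2 fold change, *mid* mutant over *yw*, of the 23 measured genes under 6 ways of scaling the arrays, with 5 genes coloured and labelled and the median of all measured genes dashed. *Klp61F*, *ncd* and *Khc-73* stay lowest under each scaling, and the whole family moves down with all genes when the values are taken as deposited (median -1.41 for the family and -1.52 for all).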

How the data were processed

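One probe-set table was used, whose columns are named by sample. Its deposited intensity signals came from MAS5, the one tool that the submitters' processing notes name. Its version and scaling target, detection calls and a genome build were not found in the sources used here. Of 14010 probe sets, 12444 had a single symbol in an annotation table of the array, 327 had several and 1239 had none. Symbols were updated by gene ID through a RefSeq gene table (50 probe sets had a gene outside it). The *mid* array was scaled to the median of the *yw* array, and signals under the 40th percentile of both arrays were raised to it. The brightest probe set stood for a gene, and log2 fold changes are *mid* over *yw*. Differences were called by size alone, at more than 2-fold. Members, lists and settings were chosen with earlier results of these data known. Every motor or tubulin gene could be named, and of the other microtubule genes those past 2-fold; *Grip91*, *Grip128*, *DCTN2-p50*, *DCTN6-p27*, *Dlic*, *egl*, *BicD*, *Miro*, *milt*, *Unc-76*, *syd*, *kat80*, *Tbca*, *Tbcc* and *Tbce* and single markers were added after their values were seen. The number of arrays limits the precision. The alternatives were 5 other scalings (as deposited, quantile, loess with span 0.3, equal mean of the central 96% of values, 9 spiked controls), no floor or one at the 20th or 60th percentile, thresholds of 1.5-fold and 3-fold, and the median log2 fold change of all probe sets of a gene. The computation was tested on simulated data. Scripts ran in Python 3.11.15 with pandas 2.3.3, numpy 2.4.6, matplotlib 3.10.9 and statsmodels 0.14.6.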

Additional observations from a re-analysis of the deposited data

How the results depend on the processing

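After median centring, 3 motor or tubulin genes were lower in *mid* than in *yw* embryos, 0 were higher, and the family median was 0.08. With the values as deposited 22 were lower and the median was -1.41, as the *mid* array as a whole is dimmer. With the floor at the 20th percentile 5 were lower, *Klp67A* and *nod* being added. With no floor 10 were lower and 2 higher (*Klp59D* and *Dhc36C*), most of them dim on both arrays. A threshold of 1.5-fold gave 2 higher (*Klc* and *Dhc64C*), and one of 3-fold left 1 lower (*Klp61F*). Under quantile normalisation, loess, the equal mean of central values, the spiked controls and the median over probe sets, the count of 3 lower and 0 higher stayed, and with the floor at the 60th percentile 2 were lower. *Klp61F* and *ncd* were below 0 under every scaling and floor run. Scaling by a single factor cannot reorder genes above the floor, so this is a weak check. No paired analysis was possible because each genotype has 1 array. Of the 43 genes, 38 have a single probe set, so most values have no second measurement, and signal near the floor limits the rest.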

Other observations

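*cana*, a kinetochore motor gene related to *cmet*, is covered by a pair of probe sets that the annotation assigns jointly to *cana* and *CG33695*, so their signal cannot be given to either gene. One read 138 in *mid* and 193 in *yw* embryos (log2 fold change -0.48), and the other read 73.7 in *mid*, under the floor, and 98.6 in *yw* embryos, just above it.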
